A study of Mus musculus with 9 samples.

Results

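Lung endothelial cells carrying DNMAML were compared with wild-type (WT) lung endothelial cells by RNA sequencing, 3 libraries against 3, across all genes. The 6 libraries were chosen by their genotype label and are part of a series of 9, whose other 3 libraries carry a Notch1f/f genotype. Mice of both genotypes were of the C57BL/6 strain and 6 weeks of age. From the lungs, live endothelial cells were sorted as negative for DAPI (a dye that marks dead cells) and for CD45 (a protein of leukocytes), and positive for CD31 (an endothelial surface protein), per the labels. DNMAML is the usual name of a truncated, dominant-negative Mastermind-like protein. The sources used here do not name the promoter or recombinase that drives it, nor the share of cells that carried it. They do not say either whether each library is a mouse of its own, so p-values measure the spread between these libraries, which may in part be technical.

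Notch receptors are cleaved after they bind a ligand on a neighbouring cell, and the freed intracellular part enters the nucleus. There it binds the DNA-binding protein RBPJ, and Mastermind-like proteins join this pair to switch on target genes such as those of the Hes and Hey families. A truncated Mastermind-like protein can occupy the complex without activating transcription. In growing vessels Notch is known for restraining tip cells and cell division and for promoting arterial identity.

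Total counts ran from 15522100 to 27842496 per library. The endothelial genes Cdh5 and Pecam1, which encode VE-cadherin and CD31, were at 5695 to 6621 and at 3377 to 3961 CPM (a gene's count relative to the scaled total count of its library) in the 6 libraries, so the labelled cell type was borne out by its markers. Y-linked genes were counted in WT library 2 and in DNMAML libraries 1 and 3 (245 to 255 CPM in sum), and had no count in the other 3. The labels number the libraries 1 to 3 in each genotype. Same-numbered WT and DNMAML libraries deviated from their group means together (correlation across genes 0.205 to 0.365, against -0.29 to 0.08 for differently numbered ones). For example, immediate early and heat shock genes, which respond within minutes to handling of cells, summed to 6282 and 5110 CPM in WT 2 and DNMAML 2 and to 12966 to 16950 CPM in the other 4. Differences are therefore also given within each number. Because every pair held a library with and a library without Y-linked counts, a difference within a pair and one linked to sex cannot be told apart for that pair. The DNMAML library held the Y-linked counts in pairs 1 and 3 and the WT library in pair 2. Libraries with Y-linked counts were thus not balanced between the genotypes.

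Genes of cell division made up most of what rose in DNMAML endothelium, while the fallen genes were few and mixed, with von Willebrand factor the best known among them. Of 18117 genes tested, 65 rose (0.359%) and 13 fell (0.0718%) at a Benjamini-Hochberg adjusted p below 0.05 in edgeR's quasi-likelihood test on the 6 libraries. In all 78 of them the groups did not overlap, so the direction was also the same within all 3 replicate numbers. These genes were picked by a test on the same 6 libraries, which largely fixes both, so neither is further evidence. Over all genes tested, 19.3% were higher and 17.1% lower within all 3 numbers. By comparison, every DNMAML library was above every WT library in 7.62% of all genes tested and below in 7.05%. The 65 comprised 25 genes of a list of 50 for mitosis and the G2 phase, 5 of a list of 46 for DNA replication, 10 genes of the histone clusters and 25 others. The median log2 difference of all genes tested was 0.005, with 50.6% of estimates above 0 and 49.4% below, and 8.2% had an unadjusted p below 0.05.

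**Figure D1:**
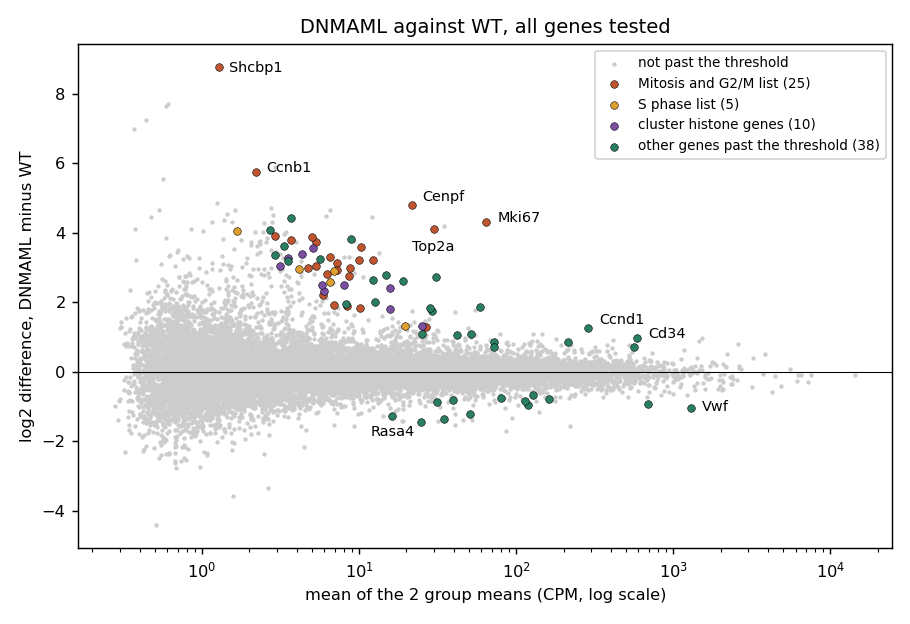
Difference between DNMAML and WT (vertical axis, log2, from the edgeR fit to 6 libraries) against the mean of the group means (horizontal axis, CPM, log scale) for each of 18117 genes tested. Coloured points are the 78 genes past the threshold; the 65 higher ones are mostly genes of low level and of cell division, and the highest point, Shcbp1, had no count in any WT library, so its fitted value is no measure of size.

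How many genes passed depended strongly on the fit. With the replicate number as a block, which left 2 residual degrees of freedom, 212 genes rose (1.17%) and 98 fell (0.541%), and 63 of the 65 and 12 of the 13 were among them. When the spread was estimated over all 9 libraries of the series, 1 gene rose (0.00513%, Aspm) and 0 fell, with 440 lower genes at an unadjusted p below 0.05 in that edgeR fit. For comparison, DESeq2 called 1.38% of genes higher and 0.618% lower, and limma-voom 0.105% and 0%. Leaving out any single library cut the higher genes from 65 to between 12 (without DNMAML replicate 1) and 28 (without WT replicate 2), and the lower genes to between 0 and 4. None of the 59 named genes past the threshold changed direction in any of 19 such alternatives. Unless another fit or tool is named, adjusted p values, and statements that a gene rose, fell or passed, are those of edgeR's quasi-likelihood test on the 6 libraries.

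Mitosis genes showed the clearest difference. Mki67, which encodes the proliferation marker Ki-67 (chromosome 7, 135291513 to 135318090, GRCm39), had 5.46, 7.14 and 5.91 CPM in WT libraries 1 to 3 and 121, 145 and 102 CPM in DNMAML libraries 1 to 3. Every DNMAML library was thus far above every WT library. The means were 6.17 ± 0.872 and 123 ± 21.5 CPM (SD, n = 3 each), a log2 change of 4.32 (SE 0.18, edgeR adjusted p = 2.61e-05). Top2a, the topoisomerase that untangles chromosomes before they part (chromosome 11, 98883769 to 98915015), had 4.53, 2.93 and 2.32 CPM in WT against 58.6, 58.1 and 53 CPM in DNMAML. Its log2 change was 4.11 (SE 0.24, edgeR adjusted p = 0.000223), and its DNMAML libraries lay within a narrow range. Cenpf, a protein of the kinetochore, where chromosomes attach to the spindle (chromosome 1, 189372803 to 189420283), had 1.18, 1.91 and 1.36 CPM in WT against 42.3, 49 and 33.5 CPM in DNMAML. It rose by 4.81 on the log2 scale (SE 0.25, edgeR adjusted p = 0.000119). Aspm, a spindle pole protein (chromosome 1, 139382510 to 139421829), had 1.34, 1.91 and 1.52 CPM in WT against 19.3, 21.2 and 16.8 CPM in DNMAML. Its log2 change was 3.59 (SE 0.26, edgeR adjusted p = 0.000989). Over the 19 other fits and library selections tried, Aspm passed in 18 and Mki67, Top2a and Cenpf in 17 each.

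Promoters of mitosis genes often carry a pair of elements, the CCAAT box bound by NF-Y and the CHR (cell cycle genes homology region), through which these genes are kept silent in resting cells and switched on before division. The 250 bases before the start site of the 4 genes just described are shown because they let a reader see these elements in the genes that differed most clearly. They are taken from RefSeq on build GRCm38.p6, an earlier build than that of the counts, and run 5′ to 3′ along the gene's strand. Capitals mark each CCAAT and each TTTGAA (the letters searched for the CHR), on either strand, where the reverse strand reads ATTGG and TTCAAA. The windows are chr7:135716380-135716629 on the minus strand for Mki67, chr11:99024190-99024439 on the minus strand for Top2a, chr1:139454523-139454772 on the plus strand for Aspm and chr1:189688087-189688336 on the minus strand for Cenpf.
Mki67: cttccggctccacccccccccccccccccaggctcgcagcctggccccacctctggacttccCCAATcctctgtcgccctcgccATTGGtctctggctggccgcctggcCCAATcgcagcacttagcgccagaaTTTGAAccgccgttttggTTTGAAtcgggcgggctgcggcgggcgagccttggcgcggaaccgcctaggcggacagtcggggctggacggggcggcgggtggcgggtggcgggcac
Top2a: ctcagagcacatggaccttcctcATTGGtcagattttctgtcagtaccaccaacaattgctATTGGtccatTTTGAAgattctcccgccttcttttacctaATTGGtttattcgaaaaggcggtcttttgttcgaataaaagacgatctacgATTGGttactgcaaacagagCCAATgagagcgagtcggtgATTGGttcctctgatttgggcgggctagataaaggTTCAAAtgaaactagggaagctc
Aspm: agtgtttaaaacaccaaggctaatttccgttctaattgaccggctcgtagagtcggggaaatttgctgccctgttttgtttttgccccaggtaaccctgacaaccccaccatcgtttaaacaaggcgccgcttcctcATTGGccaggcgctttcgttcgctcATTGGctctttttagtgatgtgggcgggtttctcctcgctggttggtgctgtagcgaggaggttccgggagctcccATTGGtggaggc
Cenpf: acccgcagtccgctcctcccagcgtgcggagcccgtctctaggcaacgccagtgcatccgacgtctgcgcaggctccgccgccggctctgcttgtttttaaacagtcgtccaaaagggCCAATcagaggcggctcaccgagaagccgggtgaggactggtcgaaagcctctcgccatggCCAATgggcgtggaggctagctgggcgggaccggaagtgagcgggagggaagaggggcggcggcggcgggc

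Mki67 held 2 matches to TTTGAA and 3 to CCAAT in this window, and Top2a held 2 and 6. Aspm held 3 matches to CCAAT and Cenpf 2, with none to TTTGAA in these windows. Of the 42 mitosis genes with a promoter in the RefSeq table, 31 (73.8%) held CCAAT, against 34.5% of 27025 promoters of the same length. TTTGAA was found in 15 of the 42 (35.7%), against 16.3% of all promoters. For the 44 risen genes with a promoter the shares were 70.5% and 34.1%, and for 37 genes of DNA replication 64.9% and 13.5%. CCAAT was above the share of all promoters in the smaller sets too, at 57.1% of 7 fallen genes, 50% of 14 p53 targets and 47.4% of 19 Notch targets, and TTTGAA was in 14.3%, 21.4% and 5.26% of these. The shares were not tested against each other. A match of letters is a description of sequence, not a bound site.

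The rest of the mitosis list followed the same pattern. All 50 members had enough counts to be tested, 25 of them rose and 0 fell, and all 50 estimates were above 0. Every DNMAML library exceeded every WT library in 47 of the 50, against 7.62% of all genes. These counts describe the list and are no test. Members with hardly any WT count, such as Shcbp1 and Ccnb1, passed the filter on low counts only through the DNMAML libraries. The list was also written with earlier results of these data known. The list's median log2 difference was 3.01, or 2.99 with the 2 members that had no WT count set to a lower bound, and it was 2.81, 2.77 and 2.86 within replicate numbers 1, 2 and 3 on the log2 CPM scale. In sum, the list stood at 166, 170 and 176 CPM in WT and at 770, 839 and 701 CPM in DNMAML.

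Among the risen members, chosen for mention after their values were seen, were the cyclin Ccna2 and its kinase partner Cdk1, which drive entry into mitosis, with log2 changes of 3.13 and 3.74. Anln, Prc1, Racgap1 and Kif23, which build the contractile ring or the midzone of the dividing cell, rose by 3.23, 3.21, 2.77 and 2.92. Tpx2, a spindle assembly factor, rose by 3.00, and Foxm1, a transcription factor of G2 and mitosis genes, by 1.88. Their edgeR adjusted p values lay between 0.00189 for Anln and 0.0418 for Foxm1. Kinetochore scaffold Knl1 had 0.926, 0.638 and 0.303 CPM in WT against 12.5, 9.43 and 6.08 CPM in DNMAML, and rose by 3.89 (SE 0.50). The mitotic kinase Aurkb had 0.618, 0.128 and 0.303 CPM in WT against 3.89, 8.19 and 4.34 CPM in DNMAML, and rose by 3.92 (SE 0.64). Hmmr, a spindle-associated protein, rose by 3.78 (SE 0.61), with edgeR adjusted p values of 0.019, 0.0428 and 0.0411 for the 3 genes. The mitotic cyclin Ccnb1 had 0, 2 and 2 counts in WT and 100, 92 and 121 counts in DNMAML (edgeR adjusted p = 0.0251). Shcbp1, a midbody protein, had no count in any WT library and 2.7, 2.78 and 2.17 CPM in DNMAML. Against a floor of 3 counts per WT library, Shcbp1 was at least 15.5-fold higher (edgeR adjusted p = 0.0342). Ckap2, Nusap1, Kif20b and Bub1, which act on the spindle or its checkpoint, missed the threshold on 6 libraries and passed with the replicate block (log2 changes of 4.81, 2.20, 1.66 and 4.22 in that fit, edgeR adjusted p from 0.00958 to 0.0159), in DESeq2 and without the filter on low counts.

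**Figure D2:**
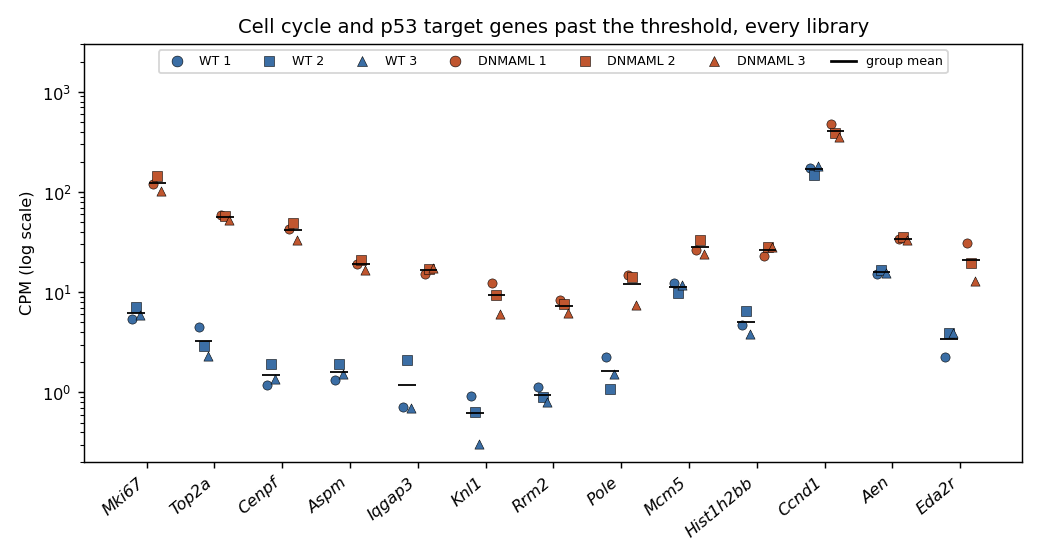
Level of 13 genes past the threshold in each of the 6 libraries (vertical axis, CPM, log scale), with circles, squares and triangles for replicate numbers 1, 2 and 3 and a bar for each group mean. For each gene the DNMAML libraries lie above the WT libraries, as with Mki67 at 102 to 145 CPM against 5.46 to 7.14 CPM.

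Genes of DNA replication were higher as well, by less. Of 46 listed, all were tested, 5 rose (Rrm2, Mcm5, Pole, Mcm10 and Uhrf1) and 0 fell, with 44 of 46 estimates above 0 and a median log2 difference of 0.91. Every DNMAML library was above every WT library in 29 of the 46, against 7.62% of all genes. Here too, members with hardly any WT count, such as E2f1, passed the filter on low counts only through the DNMAML libraries. Mcm5, a subunit of the helicase that opens replication forks, had 12.4, 9.82 and 11.7 CPM in WT against 26.4, 33.3 and 24.3 CPM in DNMAML. It rose by 1.31 (SE 0.19, edgeR adjusted p = 0.0309). Rrm2, which makes the building blocks of DNA, had 1.13, 0.893 and 0.808 CPM in WT against 8.27, 7.64 and 6.19 CPM in DNMAML, a log2 change of 2.95 (SE 0.38, edgeR adjusted p = 0.0182). Pole, the polymerase of the leading strand, rose by 2.90 (SE 0.41), from 1.08 to 2.26 CPM in WT to 7.45 to 14.9 CPM in DNMAML (edgeR adjusted p = 0.0309). Mcm10, a replication initiation factor, and Uhrf1, which maintains DNA methylation, rose by 4.06 and 2.59 (edgeR adjusted p = 0.038 and 0.0447). With the replicate block 15 of the 46 rose and DESeq2 called 16 higher, while limma-voom and the edgeR fit to all 9 libraries called 0. With any single library left out, 0 or 1 of the 46 rose. With any single library left out, the list's median lay between 0.71 (without DNMAML replicate 2) and 1.21 (without DNMAML replicate 3).

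Histone genes of the replication-dependent clusters, which are transcribed in S phase and whose messages largely lack poly(A) tails, can be counted in these libraries, which were made from total RNA after ribosomal RNA was removed. This group was formed after its values were seen. Of 70 such genes, 53 were tested, 10 rose and 0 fell, 45 estimates were above 0 and 8 below, and the median log2 difference was 1.02. The sum of the group was 1087, 1023 and 923 CPM in WT against 1272, 1303 and 1299 CPM in DNMAML, a smaller difference than the median, since abundant members such as Hist1h1e (log2 difference 0.27), Hist1h4d (-0.22), Hist1h2be (-0.17) and Hist1h4c (-0.17) did not pass. Hist1h2bb, a histone H2B gene, had 4.74, 6.44 and 3.84 CPM in WT against 23.2, 28.4 and 28.3 CPM in DNMAML. It rose by 2.41 (SE 0.24, edgeR adjusted p = 0.00632). Hist1h3c and Hist1h4f, genes of histones H3 and H4, rose by 3.57 (SE 0.52) and 2.51 (SE 0.34), and the linker histone gene Hist1h1d by 1.31 (SE 0.15), with edgeR adjusted p values of 0.0309, 0.0271 and 0.0103. Cluster histone genes have near-identical copies, so the split of counts among them is uncertain.

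At the entry to the cell cycle the picture was narrower. Ccnd1, the D-type cyclin that activates CDK4 and CDK6 (chromosome 7, 144483668 to 144493662), had 174, 148 and 183 CPM in WT against 474, 385 and 354 CPM in DNMAML. The means were 169 ± 18.1 and 404 ± 62 CPM, a ratio of 2.40 and a log2 change of 1.26 (SE 0.14, edgeR adjusted p = 0.00949). It was the only one of 17 listed D cyclins, their kinases, CDK inhibitors and retinoblastoma family genes to pass in edgeR, with or without the replicate block, while DESeq2 called 2 higher, and the list had a median of 0.16. Ccnd2, another D cyclin, had 74.3 to 138 CPM in WT against 154 to 209 CPM in DNMAML without overlap (log2 difference 0.75, SE 0.23, edgeR adjusted p = 0.41). Cdk6, at 84.9 to 87.5 CPM in WT against 98.3 to 118 CPM in DNMAML, did not pass either (log2 difference 0.34, SE 0.10, edgeR adjusted p = 0.347). E2f1, the transcription factor released when these kinases act, had 5, 0 and 0 counts in WT and 180, 137 and 88 counts in DNMAML. It missed the threshold on 6 libraries (edgeR adjusted p = 0.0515) and passed with the replicate block (edgeR adjusted p = 0.00542).

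Targets of p53, the transcription factor activated by DNA damage and other stress, were also higher on balance. Of 17 listed and tested, Aen and Eda2r rose and 0 fell. DESeq2 called 8 higher, limma-voom 1 and the edgeR fit to all 9 libraries 0. With any single library left out, 0 or 1 of the 17 rose. Every DNMAML library exceeded every WT library in 12 of the 17, against 7.62% of all genes, and the median log2 difference was 0.70 (1.13, 0.67 and 0.43 within numbers 1, 2 and 3). Aen, an exonuclease of apoptosis, had 15.3, 16.8 and 15.6 CPM in WT against 33.9, 35.6 and 33 CPM in DNMAML. The libraries of each group lay close together, and Aen rose by 1.10 (SE 0.14, edgeR adjusted p = 0.0173). Eda2r, a receptor of the tumour necrosis factor family, had 2.26, 3.95 and 3.94 CPM in WT against 31, 19.4 and 13 CPM in DNMAML. Its log2 change was 2.64 (SE 0.37, edgeR adjusted p = 0.0309), with a spread of more than 2-fold among the DNMAML libraries. With the replicate block 7 members rose, among them Sesn2 (log2 change 1.57, SE 0.24), Zmat3 (0.86, SE 0.14), Phlda3 (0.69, SE 0.12) and Ccng1 (0.75, SE 0.13), with edgeR adjusted p values from 0.0109 to 0.0222. Cdkn1a, the CDK inhibitor p21 and a classical p53 target, had 92, 71.7 and 102 CPM in WT against 236, 118 and 135 CPM in DNMAML. Its groups did not overlap, but it passed in neither edgeR fit (adjusted p = 0.439, and 0.117 with the block), while it passed in DESeq2 (adjusted p = 0.0294). Bax, which promotes apoptosis, had 12.8, 13.3 and 16.1 CPM in WT against 31.6, 31.5 and 20.9 CPM in DNMAML and just missed the threshold with the block (log2 difference 0.97, SE 0.21, edgeR adjusted p = 0.0504).

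Leukocyte markers were higher in DNMAML libraries 1 and 2, although the sort removed cells with CD45 signal. Ptprc, the gene of CD45, was at 4.94, 2.93 and 0.404 CPM in WT against 27.7, 26.5 and 1.37 CPM in DNMAML. Only DNMAML 1 and 2 stood above all WT libraries, while within numbers 1, 2 and 3 it differed by 2.46, 3.14 and 1.56. It did not pass on 6 libraries (log2 difference 2.74, SE 1.38, edgeR adjusted p = 0.729) and rose with the block (2.62, SE 0.29, edgeR adjusted p = 0.00271). Of 24 leukocyte and lymphocyte genes, 14 had enough counts to be tested and 0 passed in edgeR, DESeq2 or limma-voom on 6 libraries, with 3 higher at an unadjusted p below 0.05 in edgeR. Genes with so few counts could pass the filter on low counts through the DNMAML libraries where they were high. The list's median of 2.05 is thus a description of the tested members alone. The sum of the 24 was 186, 120 and 145 CPM in WT against 337, 324 and 110 CPM in DNMAML. Monocyte and macrophage genes summed to 441, 148 and 853 CPM in WT against 675, 586 and 406 CPM in DNMAML, with overlap. Tyrobp, Ccr2 and Cybb of that list rose with the block, and DESeq2 called 2 of the list higher on 6 libraries, Tyrobp among them. Neutrophil genes summed to 18.4, 8.48 and 34.3 CPM in WT against 80.5, 134 and 17.5 CPM in DNMAML. Il1b of that list, an inflammatory cytokine, was at 1.96, 1.15 and 0.707 CPM in WT against 25.3, 23.8 and 3.04 CPM in DNMAML. It did not overlap, and it rose with the block (3.50, SE 0.41, edgeR adjusted p = 0.005; 0.258 without it) and in DESeq2.

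DNMAML 3 held leukocyte genes at a sum below the WT libraries and macrophage genes within their range, with Ccr2, Cd53 and Csf3r at 0 counts, and mitosis genes at 701 CPM in sum. Some markers were nevertheless higher there than in WT 3, the library of the same number: the median within number 3 was 0.75 for leukocyte and 0.18 for macrophage genes, with Tyrobp at 3.12, Cybb at 2.68 and Il1b at 1.97. Tyrobp (0.723 CPM) and Il1b in DNMAML 3 were above every WT library. An alternative added after the data were seen set only DNMAML 3 against the 3 WT libraries. It assumes that the lone library varies like the others. Its filter on low counts was rerun, so the tested members of a list can differ from those of the fit to 6 libraries. In this alternative the mitosis list's median was 2.95 and the leukocyte list's was -0.89. The medians of the DNA replication and p53 lists were 0.49 and 0.55. In that fit Mki67, Top2a and Cenpf rose and no other gene of 20551 tested did (0.0146%), and 0 fell, with 344 lower at an unadjusted p below 0.05 in edgeR. In DNMAML 3 these genes were at 102, 53 and 33.5 CPM, against at most 7.14, 4.53 and 1.91 CPM in WT. Because these are bulk libraries, a greater share of dividing cells and more of these RNAs per cell cannot be told apart. Whether leukocytes had a part in the difference of the mitosis genes was not tested, and the values of DNMAML 3 rest on 1 library.

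**Figure D3:**
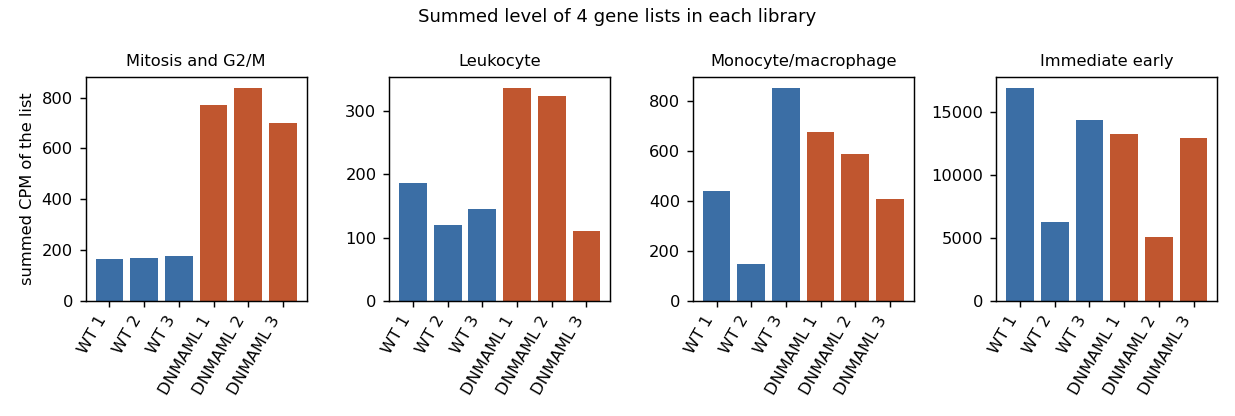
Summed level of 4 gene lists in each library (vertical axes, CPM, starting at 0; blue WT, red DNMAML). Mitosis genes are at 166 to 176 CPM in WT against 701 to 839 CPM in all 3 DNMAML libraries, leukocyte genes are high in DNMAML 1 and 2 but at 110 CPM in DNMAML 3, and immediate early genes are low in both libraries numbered 2.

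Genes of the Notch pathway itself differed little. Of 21 listed receptors, proteases and nuclear partners, none passed in edgeR on 6 libraries, where 1 was higher and 2 were lower at an unadjusted p below 0.05. DESeq2 called 1 lower and limma-voom 0, and the median log2 difference was -0.01. Notch1, the main receptor of endothelium, had 758, 904 and 804 CPM in WT against 673, 866 and 769 CPM in DNMAML, with overlap (log2 difference -0.10, SE 0.13, edgeR adjusted p = 0.943). Notch3, a receptor of mural cells, had 113, 118 and 69.2 CPM in WT against 83.4, 42.9 and 79.3 CPM in DNMAML, and Notch2 67.5 to 96.1 CPM and 59.5 to 81 CPM; both overlapped. Maml1, the gene after whose product the construct is named, had 81.6, 58 and 83.6 CPM in WT against 75.7, 81.5 and 76.3 CPM in DNMAML. Its log2 difference was 0.07 (SE 0.15), and its sign turned in fits that left out WT 2. Counts per gene do not separate a truncated transgene from the gene itself, so they are no check of the label. Psen2, a catalytic subunit of the protease that frees the Notch intracellular part, had 33.4, 39.8 and 36.6 CPM in WT against 20.7, 17.5 and 22.9 CPM in DNMAML, without overlap. It missed the threshold on 6 libraries (log2 difference -0.85, SE 0.15, edgeR adjusted p = 0.0691) and fell with the block (edgeR adjusted p = 0.0231).

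The ligands and the Fringe enzymes that tune them did not pass in either fit, nor in DESeq2 or limma-voom, and 1 was lower at an unadjusted p below 0.05 in edgeR. Jag1, itself induced by Notch, had 103, 120 and 98.7 CPM in WT against 65.4, 78.4 and 86 CPM in DNMAML, the only one of 7 tested without overlap (log2 difference -0.48, SE 0.13, edgeR adjusted p = 0.263, and 0.0598 with the block). Dll4, the chief ligand of arterial and sprouting endothelium, had 330 to 391 CPM in WT against 246 to 336 CPM in DNMAML (log2 difference -0.27, SE 0.14, edgeR adjusted p = 0.696). Dll1 had 154 to 187 CPM in WT against 135 to 173 CPM in DNMAML, with overlap.

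Notch targets were lower on balance, by small amounts that mostly did not pass. Of 28 listed, 27 were tested, 20 had estimates below 0, and the median log2 difference was -0.22 (-0.40, -0.22 and -0.05 within numbers 1, 2 and 3). Every DNMAML library was below every WT library in 8 of the 27, against 7.05% of all genes, and above in 2, against 7.62%. In edgeR on 6 libraries 0 of them fell, with 8 lower at an unadjusted p below 0.05, and Ccnd1, described above, rose. DESeq2 called 2 lower and limma-voom 0. Hes1, the best known direct target and a transcriptional repressor (chromosome 16, 29883202 to 29886614), had 125, 78.6 and 138 CPM in WT against 58.1, 43.8 and 92.6 CPM in DNMAML. The groups overlapped, with the lowest library of each being number 2, and within numbers 1, 2 and 3 Hes1 differed by -1.10, -0.84 and -0.58. Its log2 difference was -0.81 (SE 0.33, edgeR adjusted p = 0.603) on 6 libraries and -0.84 (SE 0.11, edgeR adjusted p = 0.00542) with the block. Efnb2, the arterial ephrin ligand (chromosome 8, 8667434 to 8711242), had 1026, 1030 and 1060 CPM in WT against 547, 756 and 804 CPM in DNMAML. The WT libraries lay close together and all above the DNMAML libraries. Efnb2 fell with the block (-0.58, SE 0.12, edgeR adjusted p = 0.0352), not without it (-0.56, SE 0.15, edgeR adjusted p = 0.235). Gja5, the arterial gap junction protein connexin 40, had 62, 45.9 and 43.4 CPM in WT against 34.4, 23 and 29.9 CPM in DNMAML, and fell with the block (-0.79, SE 0.13, edgeR adjusted p = 0.0155; 0.177 without it).

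The other targets did not pass in either fit. Hey1, a repressor related to Hes1, had 315, 393 and 263 CPM in WT against 208, 283 and 296 CPM in DNMAML and was lower within numbers 1 and 2 but not 3. Hey2 had 6.38, 5.74 and 10.4 CPM in WT against 3.58, 4.47 and 3.55 CPM in DNMAML, without overlap (log2 difference -0.96, SE 0.34, edgeR adjusted p = 0.455). Id3, Tmem100, Flt1 and Dtx3 were also without overlap and lower, with log2 differences of -0.48, -0.30, -0.22 and -0.28. In Nrarp, Heyl, Nr2f2 and Sox17 the groups overlapped, with log2 differences of -0.05, -0.12, -0.08 and -0.00. Myc was higher without overlap (log2 difference 0.68, SE 0.43, edgeR adjusted p = 0.782). Snai2 and Unc5b were higher with overlap, by 0.43 and 0.37. A match to GTGGGAA, a form of the RBPJ site searched on both strands, was found in 4 of 19 promoters of the list (21.1%) and in 5.41% of all promoters. It was also in 14.3% of 14 p53 targets and 14.3% of 7 fallen genes. The share was 8.11% of 37 genes of DNA replication, 7.14% of 42 mitosis genes and 4.55% of 44 risen genes. These shares were not tested against each other.

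Genes of tip cells and sprouting moved in both directions. Of 30 listed and tested, 24 had estimates above 0, the median was 0.20, and Cd34 alone passed in edgeR on 6 libraries, where DESeq2 called 8 higher and 2 lower. Cd34, a surface sialomucin of tip cells and other endothelium (chromosome 1, 194621127 to 194643587), had 385, 327 and 478 CPM in WT against 714, 877 and 762 CPM in DNMAML. The means were 397 ± 76 and 784 ± 83.7 CPM, and the log2 change was 0.98 (SE 0.16, edgeR adjusted p = 0.04). With the block the peptide hormone gene Apln and its receptor Aplnr rose by 0.87 (SE 0.11) and 0.57 (SE 0.12), and Nid1, a linker of basement membranes, by 0.44 (SE 0.09), with edgeR adjusted p values of 0.00375, 0.0489 and 0.0408. Apln had 101, 83.9 and 98.5 CPM in WT against 195, 126 and 207 CPM in DNMAML. In the same fit 2 genes of the list fell. Vegfc, a growth factor best known for lymphatic vessels, had 47.5, 58.7 and 75.8 CPM in WT against 14.6, 18.4 and 30.5 CPM in DNMAML, a log2 change of -1.56 with the block (SE 0.13, edgeR adjusted p = 0.00042; 0.124 without it). Esm1, a proteoglycan of tip cells, had 26.2, 34.6 and 22 CPM in WT against 7.31, 12.3 and 11.7 CPM in DNMAML, a log2 change of -1.41 with the block (SE 0.21, edgeR adjusted p = 0.0094; 0.0688 without it). The tip cell receptor Kdr had 1939 to 2173 CPM in WT against 1937 to 2540 CPM in DNMAML, with overlap.

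Basement membrane and matrix genes had a median of 0.32, with 29 of 34 estimates above 0. Col15a1, a collagen of basement membranes, had 14.5, 9.05 and 13.6 CPM in WT against 34.4, 62.8 and 36.1 CPM in DNMAML. It was the one member that rose in edgeR on 6 libraries (DESeq2 called 5 higher), by 1.84 (SE 0.28, edgeR adjusted p = 0.0411), and it did not pass with the block (edgeR adjusted p = 0.0866), where its difference was 2.78 within number 2 and 1.24 and 1.40 within numbers 1 and 3. Col4a1 and Col4a2, neighbouring genes for the main chains of collagen IV, and Sparc, a collagen-binding protein, had log2 differences of 0.81 (SE 0.22), 0.97 (SE 0.21) and 0.89 (SE 0.17) without overlap and did not pass in either of these edgeR fits, while Col4a2 and Sparc passed in DESeq2. Col5a1 and Mmp2 rose with the block. Fibroblast markers, which share several matrix genes, had a median of 0.23 with Dpt alone past the threshold with the block. Their part in the matrix differences was not tested.

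Genes of larger vessels were lower on balance. Vwf, the clotting protein stored by endothelial cells and highest in veins and larger vessels (chromosome 6, 125523737 to 125663642), had 1534, 1835 and 1866 CPM in WT against 873, 664 and 1034 CPM in DNMAML. The means were 1745 ± 183 and 857 ± 186 CPM, a 2.04-fold lower mean and a log2 change of -1.03 (SE 0.17, edgeR adjusted p = 0.0447). Of 24 arterial genes tested, 20 had estimates below 0 (median -0.25), 7 were lower without overlap and 0 higher, and none passed in edgeR on 6 libraries, with 6 lower and 1 higher at an unadjusted p below 0.05. DESeq2 called 3 of them lower and limma-voom 0. Of 19 venous genes, 15 had estimates below 0 (median -0.27), 5 were lower without overlap and 0 higher, and Vwf alone fell in edgeR on 6 libraries, where DESeq2 called 3 lower. Over all genes tested, 7.05% were lower and 7.62% higher without overlap. With the block 4 arterial genes fell (Vegfc, Gja5, Efnb2 and Stmn2) and 3 venous ones (Vwf, Slc6a2 and Lyve1). Slc6a2, a noradrenaline transporter of lung veins, had 137, 193 and 250 CPM in WT against 66.6, 80.3 and 114 CPM in DNMAML, a log2 change of -1.15 with the block (SE 0.09, edgeR adjusted p = 0.000221; 0.24 without it). The differences within numbers 1, 2 and 3 were alike, at -1.04, -1.26 and -1.13. Thbd and Entpd1, which restrain clotting at the vessel wall, also fell with the block, by 0.48 (SE 0.09) and 0.74 (SE 0.09), with edgeR adjusted p values of 0.0324 and 0.00511. The list of endothelial haemostasis genes that holds these and Vwf was not lower as a whole. Of its 17 genes tested, 10 had estimates above 0 and 7 below, with a median of 0.22.

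**Figure D4:**
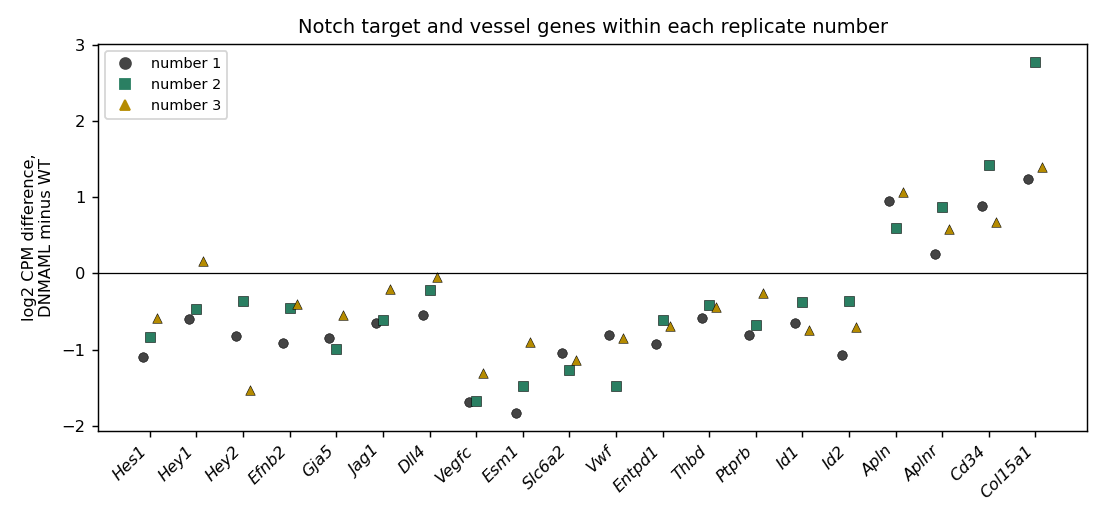
Difference between the DNMAML and the WT library of the same replicate number (vertical axis, log2 CPM) for 20 Notch target and vessel genes. Hes1, Efnb2, Gja5, Vwf and Slc6a2 lie below 0 and Apln, Aplnr, Cd34 and Col15a1 above 0 in all 3 pairs, while Hey1 lies on both sides.

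Capillary and general endothelial genes had medians nearer to 0. General capillary genes had a median of -0.14 and genes of aerocytes, the large capillary cells where gas is exchanged, -0.08, against -0.09 for 30 pan-endothelial genes. Of 20 general capillary genes 14 had estimates below 0, and 6 were lower and 1 higher without overlap. Of 23 aerocyte genes 4 were lower and 2 higher without overlap, and of 30 pan-endothelial genes 4 were lower and 4 higher. Over all genes tested, 7.05% were lower and 7.62% higher without overlap. Hilpda, a lipid droplet protein on the general capillary list, fell (described below). With the block Ptprb, the phosphatase that restrains the Tie2 receptor, fell by 0.58 (SE 0.12), Tmcc2, on the aerocyte list, by 0.73 (SE 0.12) and Ramp2, a co-receptor for adrenomedullin, by 0.57 (SE 0.10), with edgeR adjusted p values of 0.0393, 0.0186 and 0.0203. Genes of BMP signalling, which keeps lung endothelium quiescent, had a median of -0.27 over 23 tested, with 7 lower without overlap (7.05% of all genes) and 0 higher (7.62%). None passed in edgeR on 6 libraries, where 8 were lower and 1 higher at an unadjusted p below 0.05, and DESeq2 called 2 lower. The inhibitor-of-differentiation genes Id1 and Id2, direct BMP targets, fell with the block by 0.59 (SE 0.10) and 0.71 (SE 0.14), with edgeR adjusted p values of 0.0155 and 0.0331. Id1 had 178, 141 and 250 CPM in WT against 113, 109 and 150 CPM in DNMAML. The BMP receptor Acvrl1 and the feedback inhibitor Smad6 had log2 differences of -0.36 (SE 0.12) and -0.44 (SE 0.11) and did not pass.

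The 13 genes that fell on 6 libraries belonged to no single group. Xdh, the enzyme that makes uric acid from purines, had 869, 964 and 868 CPM in WT against 569, 375 and 471 CPM in DNMAML, a log2 change of -0.93 (SE 0.15, edgeR adjusted p = 0.0453). Hilpda had 144, 142 and 150 CPM in WT against 68.5, 80.5 and 93 CPM in DNMAML, a log2 change of -0.85 (SE 0.12, edgeR adjusted p = 0.0309). In both genes the lowest WT library was well above the highest DNMAML library. Rasa4, which switches off Ras, had 29.6, 48.6 and 29.7 CPM in WT against 13.3, 11.6 and 15.2 CPM in DNMAML, the largest fall among the 13 at -1.43 (SE 0.23, edgeR adjusted p = 0.04). Sult1a1, a sulfotransferase of phenols, fell by 1.37, Nkd2, an inhibitor of Wnt signalling, by 1.21 and Avpi1 by 1.28. S1pr4, a receptor for sphingosine 1-phosphate, had 47.1, 53.8 and 49.6 CPM in WT against 28.4, 29.6 and 28.5 CPM in DNMAML and fell by 0.80 (SE 0.12, edgeR adjusted p = 0.0309). Lrrc32, which holds latent TGF-beta at the cell surface, fell by 0.79, the receptor phosphatase Ptpru by 0.75, the calcium sensor Syt7 by 0.86, Cyp2d22, a cytochrome P450, by 0.95 and Lims2, an adaptor of integrin adhesions, by 0.66. Sult1a1 was the one of the 13 that did not pass with the block (edgeR adjusted p = 0.053).

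Of the 25 other risen genes, 20 were on no list used here. Several of these are known from cell division, such as Iqgap3, a scaffold of the contractile ring, Kntc1, of the spindle checkpoint, and Spag5, of the spindle. Iqgap3 had 0.721, 2.10 and 0.707 CPM in WT against 15.1, 17 and 17.6 CPM in DNMAML and rose by 3.83 (SE 0.44, edgeR adjusted p = 0.0103). Further risen genes were picked after their values were seen. Rassf2, a Ras-association protein, had 13.8, 12.5 and 14 CPM in WT against 41, 53.2 and 40.8 CPM in DNMAML. It rose by 1.74 (SE 0.16, edgeR adjusted p = 0.00456) and passed in 16 of 19 other fits and library selections. Slfn9, of the Schlafen family, had 4.63, 3.83 and 2.83 CPM in WT against 33.6, 28 and 16 CPM in DNMAML, a rise of 2.78 (SE 0.32, edgeR adjusted p = 0.0103). Ulbp1, a stress-induced ligand for natural killer cell receptors, had 5.51, 4.59 and 4.85 CPM in WT against 18.5, 25.4 and 16.4 CPM in DNMAML, a rise of 2.01 (SE 0.24, edgeR adjusted p = 0.0128). Fscn1, which bundles actin, rose by 1.87 (SE 0.25) but did not pass with the block (edgeR adjusted p = 0.119). Rises were also found for the metalloprotease Adam19 (1.09, SE 0.18), the chromatin protein Hmgb2, also known from dividing cells (1.05, SE 0.13), the polysialic acid synthase St8sia4 (0.87, SE 0.14), the ubiquitin ligase Neurl3 (0.85, SE 0.14), the migration kinase Map4k4 (0.72, SE 0.11) and the surface protein Mpzl1 (0.71, SE 0.12). Map4k4 had 417, 420 and 429 CPM in WT against 706, 742 and 638 CPM in DNMAML, with a small spread in each group. The noncoding RNA Gm42047 (chromosome 8, 122559986 to 122567917) rose from 5.15 to 9.95 CPM in WT to 34.5 to 75.3 CPM in DNMAML, by 2.72 (SE 0.36, edgeR adjusted p = 0.038).

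Stress, immune and metabolic lists had few genes past the threshold. Interferon-stimulated genes had a median of 0.29, with 27 of 31 estimates above 0, and Rsad2 and Ifit3, which are antiviral, rose with the block by 1.06 (SE 0.19) and 0.58 (SE 0.11). MHC and antigen presentation genes had a median of 0.23 with none past the threshold in either edgeR fit, in DESeq2 or in limma-voom, and 0 at an unadjusted p below 0.05. Immediate early and heat shock genes had a median of -0.20, and of these Ier2 and Atf3 fell with the block, by 0.51 (SE 0.09) and 0.43 (SE 0.09). Atf3 ranged from 57.7 to 739 CPM over the libraries, and its sign turned when DNMAML 2 was left out. Circadian clock genes had a median of -0.62. Of 17 tested, 5 were lower without overlap (7.05% of all genes) and 0 higher (7.62%). In edgeR on 6 libraries 0 passed, with 5 lower at an unadjusted p below 0.05, while DESeq2 called 2 lower. The clock output genes Nr1d1 and Dbp had 435, 329 and 225 CPM and 38, 25.6 and 17.6 CPM in WT, against 135, 59.7 and 137 CPM and 14.3, 4.61 and 11.8 CPM in DNMAML. Both were without overlap and did not pass in edgeR on 6 libraries, with or without the block (log2 differences -1.57, SE 0.40, and -1.40, SE 0.46). The sources used here do not give the time of day of collection. Cry2, a repressor of the clock, fell with the block by 0.72 (SE 0.14). Of the mitochondrially encoded genes mt-Co1 and mt-Nd1 rose with the block, by 0.50 (SE 0.09) and 0.60 (SE 0.12), and of the lipid handling genes the cholesterol exporter Abcg1 by 0.72 (SE 0.11). The edgeR adjusted p values of these genes with the block ran from 0.0103 for Abcg1 to 0.0489 for Atf3.

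Markers of other lung cells varied widely between libraries. Pericyte and smooth muscle genes had a median of -0.21 and alveolar and airway epithelial genes -0.20, with none past the threshold in edgeR on 6 libraries. At an unadjusted p below 0.05, 1 pericyte gene was higher and 0 epithelial genes differed, and DESeq2 called 1 and 0 higher. Rgs5, a pericyte gene also found in endothelium, had 13.3, 13.3 and 16.1 CPM in WT against 27.5, 22 and 29.2 CPM in DNMAML and rose with the block (0.88, SE 0.16, edgeR adjusted p = 0.0253). Sftpc, the surfactant gene of alveolar epithelium, varied from 168 to 1859 CPM in WT and from 67 to 821 CPM in DNMAML, lowest in both libraries numbered 2, and was lower in DNMAML within numbers 1, 2 and 3 (-0.27, -1.32 and -1.18). The epithelial list summed to 2159, 753 and 4433 CPM in WT against 2276, 507 and 2403 CPM in DNMAML.

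**Figure D5:**
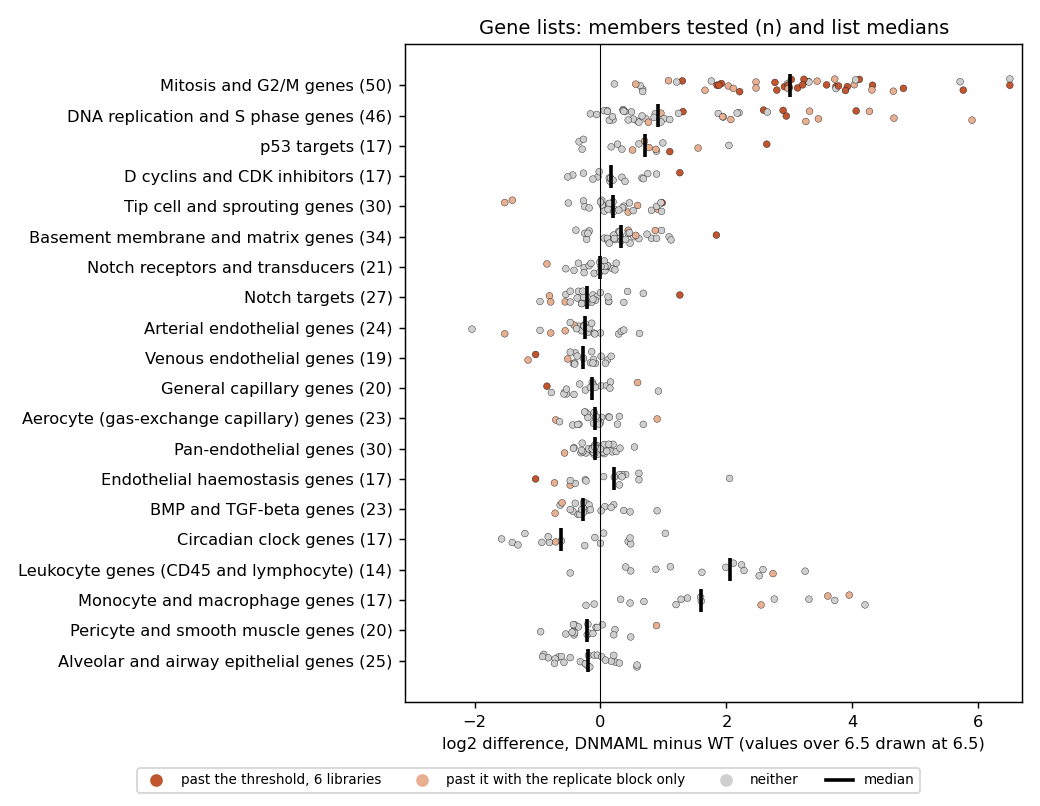
Log2 difference (horizontal axis, DNMAML minus WT, fit to 6 libraries) of each tested member of 20 gene lists, with the number tested in brackets and a bar at each list's median. Mitosis genes lie furthest to the right (median 3.01), Notch targets, arterial and venous genes lie slightly to the left of 0 (medians -0.22, -0.25 and -0.27), and the leukocyte and macrophage lists are wide with no member past the threshold in edgeR on 6 libraries.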

How the data were processed

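RNA of sorted lung endothelial cells was extracted with a DNase step and made into strand-specific total RNA libraries after depletion of ribosomal RNA, in 1 batch, per the labels' protocols. The deposited values are raw counts per gene made by the authors with featureCounts 2.0.1 and the annotation of Ensembl release 107 (GRCm39), per the file headers. STAR 2.7 and the build mm10 are named in the submitters' processing notes, and the difference between the builds is not explained in the sources used here. The recorded counting command has no option for strand, read pairs or reads with several matches, so overlapping, antisense and near-identical genes cannot be fully told apart. Of the counts from 1 to 199, 81.6% to 87.2% were even numbers in the 6 libraries, so a count is mostly a read of a pair and not a fragment, and floors and spreads cover counting error only.

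Symbols came from GENCODE M21 on GRCm38 by gene identifier, with 52073 of 56748 matched. Counts of the 6 libraries were filtered with filterByExpr, scaled by TMM and tested with edgeR 4.0.16 (robust quasi-likelihood test, Benjamini-Hochberg adjustment, threshold 0.05) in R 4.3.3, leaving 18117 genes. CPM are scaled by TMM, standard errors are the log2 difference divided by the square root of F, and differences within a replicate number use log2 CPM with a prior count of 2. Genes that passed the filter only through the DNMAML libraries had to differ, so counts and medians over a list describe it. A fold against WT libraries without a count uses a floor of 3 counts per library. Alternatives used all 9 libraries, the replicate number as a block, Y-linked counts as a term, other scaling and filters, halved counts, DESeq2 1.42.0, limma-voom (limma 3.58.1) and fewer libraries. The edgeR fits to 6 libraries, with and without the replicate block, were tested on simulated data that held no effect of the replicate number. The other fits were not. Such simulated data are no check of the block where same-numbered libraries deviate together, as they did here.

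Labels give no meaning to the replicate number. Over all genes tested, deviations from the group means correlated at 0.268, 0.365 and 0.205 for WT and DNMAML libraries of number 1, 2 and 3, and at -0.29 to 0.08 for other combinations, so the number was taken to pair the libraries, from these data alone. The same genes served for this check and for the test. Deviations within a group cancel in each gene, so positive correlations for same-numbered libraries pull the other combinations down. The other combinations are thus no independent contrast. Results with the block rest on a pairing that the labels do not give.

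The 38 lists hold 702 genes, 661 of them tested. Members, lists and the choice of 6 libraries were made with earlier results of these data known, the counts of the fits to 6 and 9 libraries included. Genes to name were drawn by a rule. It took Notch receptors, ligands and targets. It also took the 12 largest differences each way among genes that passed, averaged 1 CPM or more and did not overlap. From each list it took up to 4 members past the threshold and up to 4 more past it with the block. Lists with none gave their 2 most abundant members, and Aspm and cell markers were added. Not every gene drawn is named. Those left out include Neil3, which rose, and Notch4, Jag2, Lfng, Mfng, Ephb4 and Cxcr4, whose groups overlapped. Other genes named, the histone group included, were chosen after their values were seen. Promoters are those of RefSeq on GRCm38.p6.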

Additional observations from a re-analysis of the deposited data

How the results depend on the processing

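The number of genes past the threshold (65 higher and 13 lower in edgeR on 6 libraries) depended on the fit. It was 1 and 0 with all 9 libraries, where an unadjusted p below 0.05 was reached by 724 genes upward and 440 downward. It was 350 and 168 without a filter on low counts, 250 and 112 in DESeq2, and 19 and 0 in limma-voom, where 684 lower genes had an unadjusted p below 0.05. The replicate number as a block gave 212 higher and 98 lower genes on 6 libraries and 2 and 2 on all 9. With Y-linked counts as a term 44 rose and 7 fell. Leaving out 1 library at a time gave 12 to 28 higher and 0 to 4 lower genes. Fits chosen after the data were seen gave 3 and 0 without DNMAML replicates 1 and 2 (344 lower at an unadjusted p below 0.05), and 31 and 1 without replicate 2 of both groups. Other scaling (65 higher with 14 or 11 lower), a filter of 1 CPM (65 and 10) and halved counts (75 and 17) stayed within 1.5 times. The cause of the larger shifts was not tested, beyond the fewer libraries that some fits hold.

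The mitosis median of 3.01 was 3.14 with the replicate block, 3.15 with that block in all 9 libraries, 3.14 with the Y-linked term, 3.19 in limma-voom, 2.99 to 3.19 with 1 library left out and 2.95 without DNMAML replicates 1 and 2. The Notch target median lay between -0.28 and -0.11 throughout. Of 59 named genes past the threshold none changed direction, and 56 passed with the block, 59 in DESeq2, 36 with the Y-linked term, 18 in limma-voom, 11 to 22 with 1 library left out and 1 with all 9 libraries. Signs turned for genes that had not passed. Maml1 lay between -0.09 (without WT replicate 2) and 0.15 with 1 library left out and at -0.12 without replicate 2 of both groups. Atf3 lay between -0.93 and 0.09 (without DNMAML replicate 2) with 1 library left out and at 0.06 without DNMAML replicates 1 and 2. In that last selection Ptprc was at -0.99, Ccr2 at -6.06 and Cybb at -1.95. WT levels of most mitosis genes are a few CPM, so depth limits how well their folds are known.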
